A study of Mus musculus with 84 samples.

Results

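The nuclear-encoded genes of oxidative phosphorylation were followed across 84 mice. They were taken by name from the deposited gene counts: symbols that start with Nduf, Uqcr, Atp5, Sdh followed by a to d, or Cox4 to Cox8, with a median of at least 5 CPM (counts scaled to a common library total) over the animals. The rule gave 85 of the 43629 genes counted, on 19 chromosomes, out of 94 rows with such names once 3 pseudogene rows were left out. The 85 genes hold 43 of complex I, 6 of complex II, 8 of complex III, 12 of complex IV and 16 of complex V, and 73 of them encode subunits. The others are mainly assembly factors, and Atp5s and Atp5sl are no ATP synthase subunits despite their symbols.

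The animals were heterogeneous stock Collaborative Cross mice, an outbred stock bred from the inbred founders of the Collaborative Cross. There were 43 females and 41 males, with a median age of 15 weeks when testing started, and at most 3 animals came from a family. Each mouse chose freely between water and 10% ethanol for 13 weeks, ethanol stayed available until euthanasia, and no animal in the labels was without ethanol. RNA came from the central nucleus of the amygdala (CeA), cut by laser from thionin-stained frozen sections, and was sequenced as stranded poly(A) libraries. Preference is the share of the fluid taken from the ethanol bottle. Its mean over the trial ranged between 0.0435 and 0.759 with a median of 0.229 in females, and between 0.0262 and 0.713 with a median of 0.153 in males. The labels name 4 euthanasia passes but give no pass per animal. The sample-sheet numbers in the sample names fall into 4 ascending runs of 18, 18, 17 and 31 animals, and these runs are the only grouping of that kind that could be examined. Whether they are the passes is not stated. Family and sequencing lane are not given per animal either, so p-values treat related mice as independent.

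Oxidative phosphorylation is the last stage of respiration. Complexes I and II pass electrons from NADH and succinate to ubiquinone, complex III hands them to cytochrome c, and complex IV reduces oxygen. Complexes I, III and IV pump protons across the inner mitochondrial membrane, and complex V, the ATP synthase, lets them flow back to make ATP. Apart from complex II, each complex also has core subunits encoded by mitochondrial DNA, whose genes are all listed at 0 in the deposited counts, so only nuclear subunits are described. Neurons depend heavily on this pathway.

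Libraries held between 24118965 and 42036566 counts, with a median of 31573088.5. The 85 genes took between 0.970% and 1.79% of them, with a median of 1.27%. Markers of the labelled region were detected in all libraries, which does not measure how much neighbouring tissue was included. The CeA neuron gene Prkcd ranged between 4.81 and 84.2 CPM (median 18.6) and Penk between 49.9 and 1600 CPM (median 432), and none of the 12 CeA markers was at 0 in any library. Neighbouring tissue varied between libraries: in the 5 highest in summed choroid plexus markers Ttr, the defining transcript of choroid plexus, stood between 9149 and 23630 CPM, against 0.0988 to 9243 CPM (median 22.8) in the other animals, 1 of which thus lay above 9149 CPM. Of these 5 libraries 2 are in run 2 and 3 in run 4. Summed markers of cortical and basolateral excitatory neurons (8 genes) ranged between 807 and 8408 CPM (median 4530). Those of striatal medium spiny neurons (7 genes) ranged between 567 and 7751 CPM (median 1311). The 12 CeA markers summed to between 1130 and 4316 CPM (median 2045). In such bulk samples a smaller share of a cell type and less RNA per cell cannot be told apart.

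Levels between genes were compared per kilobase of exon. The most abundant of complex I were Ndufb9 (median 291 CPM per kb) and Ndufa6 (160 CPM per kb), both accessory subunits. In complex II they were Sdha, the flavoprotein that oxidises succinate (120 CPM per kb), and its membrane anchor Sdhd (87.9 CPM per kb). In complex III the small subunits Uqcr10 and Uqcr11 stood at 176.4 and 175.9 CPM per kb. Complex IV held the highest values of all: Cox8a, a small membrane subunit, at 642 CPM per kb and Ndufa4, first assigned to complex I and now placed in complex IV, at 537 CPM per kb. The F1 subunits Atp5a1 and Atp5b led complex V at 310 and 297 CPM per kb. The lowest of the 85 on this scale was Ndufab1, the mitochondrial acyl carrier protein, at 4.68 CPM per kb. That rank depends on its annotated exon length of 6883 bases, against a median of 1534 in the 85 genes. In CPM its median was 32.2, and the lowest gene was Ndufaf6 at 8.66.

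The threshold left out 9 genes, most of them isoforms known from other tissues. Heart and muscle isoforms were low: Cox6a2 had a median of 3.47 CPM, Cox7a1 1.13 CPM and Cox8b 0.365 CPM. The testis isoforms Cox6b2 and Cox7b2 had medians of 3.03 and 0.335 CPM, and Cox8c was at 0. The hypoxia- and lung-linked Cox4i2 stood at 0.924 CPM and the hypoxia-induced Ndufa4l2 at 1.49 CPM. Atp5l, a membrane subunit of the ATP synthase, had a median of 1.63 CPM, but 68.5% of its 50-base stretches also occur in 13 other annotated genes, so its count is uncertain. The lowest genes inside the threshold were the assembly factor Ndufaf6 with 8.66 CPM and Ndufb4 with 8.85 CPM.

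Across animals the 85 genes rose and fell together. Co-variation was described by Pearson's r of log2 CPM over the 84 animals after the mean of each sex had been taken out, with no test. The median r between subunits of the same complex was 0.758 over 810 pairs, and 0.728 over the 1818 pairs from different complexes. For the pairs of all 85 genes it was 0.686, and it was -0.0025 for pairs of all 16320 genes tested. The first principal component of the 85 genes held 67.4% of their variance. Scores of the 5 complexes, each the mean z-score of its subunits only, correlated with each other at 0.869 to 0.974, lowest where complex II was involved. All genes of an animal share the library, its depth and its composition.

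Complex II held together least tightly, and the order of the other complexes varied between runs. The median r within a complex was 0.765 in complex I, 0.480 in complex II, 0.794 in complex III, 0.768 in complex IV and 0.642 in complex V. Within run 1 these medians were 0.782, 0.399, 0.793, 0.889 and 0.804. Their SD over the 4 runs was between 0.0845 (complex III) and 0.154 (complex II), more than the gaps between complexes I, III and IV. Complex II was lowest in each run, but its median rests on 4 subunits. The gene nearest to the common pattern was Cox6b1, the subunit that bridges the monomers of the complex IV dimer, whose r with the mean of the other genes was 0.973. Cox6b1 ranged between 123 and 290 CPM with a median of 184.2. Next came the accessory complex I subunits Ndufa13 (0.945), Ndufb9 (0.943), Ndufa3 (0.943) and Ndufb7 (0.940) and the ATP synthase membrane subunit Atp5j2 (0.942). In all, 80 of the 85 genes had an r above 0.5, which 11.7% of the other tested genes reached.

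**Figure D1:**
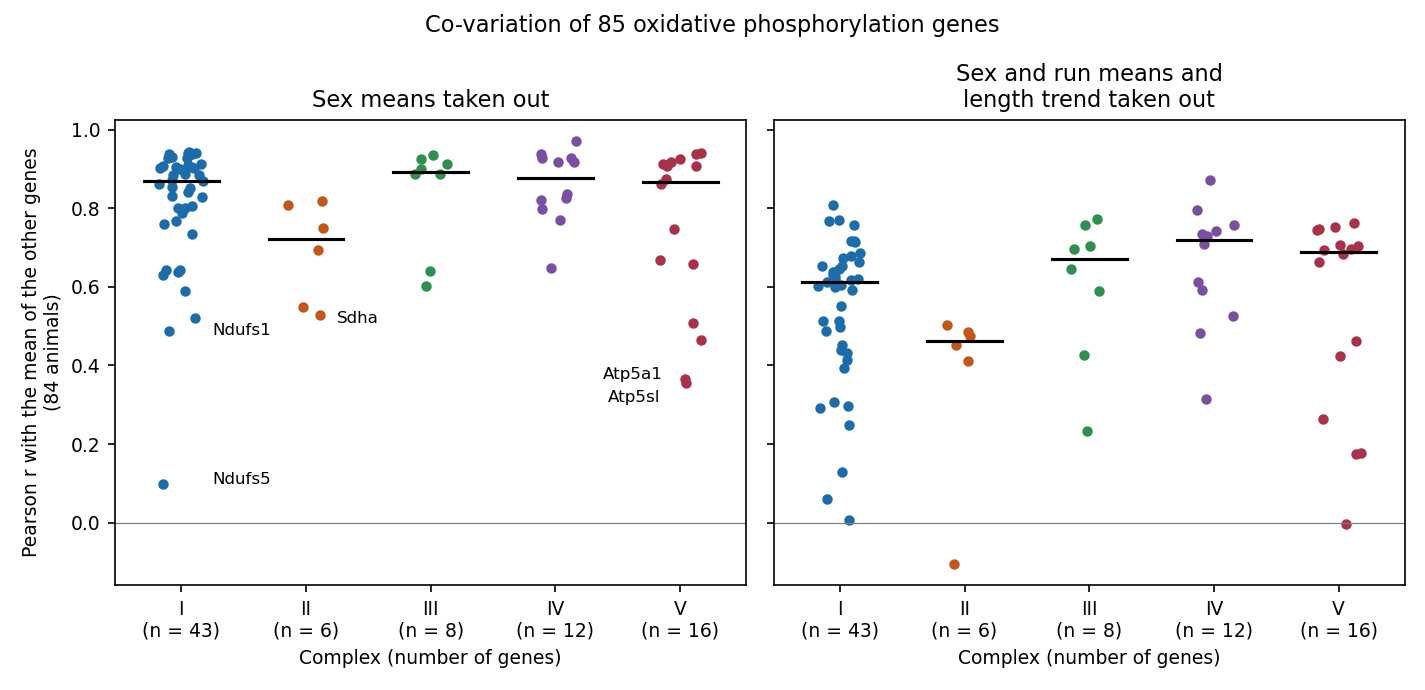
Pearson r of each of the 85 genes with the mean of the other genes over 84 animals, by complex, with sex means taken out (left) and with sex means, run means and the length trend taken out (right); points are genes and bars are medians per complex. On the left most genes lie above 0.5, and names stand beside Ndufs5, Atp5sl, Atp5a1, Ndufs1 and Sdha, 5 of the 8 lowest genes; on the right complex II has the lowest median, 0.463.

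Of the genes that departed from the common pattern, several encode large subunits. These were among the steadiest and the least coupled. Atp5a1, the alpha subunit of the ATP synthase head, ranged between 823 and 1102 CPM with a median of 971, and its r was 0.365. Its standard deviation (SD) over animals, 0.0975 on the log2 scale, was the smallest of the 85. Sdha ranged between 398 and 550 CPM (median 468), with an r of 0.529 and an SD of 0.106. Ndufs1, the largest subunit of complex I, ranged between 129.5 and 209.3 CPM (median 165.7), with an r of 0.488 and an SD of 0.148. Ndufs1 overlaps the exon of a gene on the opposite strand with more reads than itself, and how the counting treated strand is not stated in the sources at hand. The same holds for Atp5d, a subunit of the F1 head, and for Ndufb2, an accessory subunit of complex I. Ndufb2 had a median of 35.3 CPM, against 140.8 CPM for the opposite-strand gene. In all, 14 of the 85 genes overlap an opposite-strand exon of a gene with at least 1 CPM.

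By role, the 7 core subunits of complex I had a median r of 0.806 and a median SD of 0.200, and the 29 accessory subunits 0.900 and 0.290. The 5 subunits of the F1 head had a median r of 0.747, and the 4 subunits of the peripheral stalk 0.922. The 9 assembly factors had a median r of 0.750. Atp5sl and Atp5s, which are not part of the ATP synthase, had r of 0.356 and 0.466. Another low value was that of Atp5g2 (0.508), one of 3 genes for the c subunit of the membrane ring; Atp5g1 had 0.668 and Atp5g3 0.912. The core subunits are also longer, with a median exon length of 2178 bases against 1217 in the accessory subunits, and exon length itself moved with the common pattern. Values by role with this taken out are given below.

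The largest spread was that of Ndufs5 (SD 1.66). Next to it was that of Ndufb4 and Ndufc2 (SD 0.396 each), Cox7a2l (0.387), Cox6c (0.373) and Cox7b (0.370). Ndufb4 and Ndufc2 are accessory complex I subunits, Cox7a2l joins complexes III and IV into supercomplexes, and Cox6c and Cox7b are small complex IV subunits. The median SD of the 85 genes was 0.273, against 0.248 in the 11554 tested genes with a median of at least 5 CPM.

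A property of the libraries moved with the common pattern. For each library the deviation of log2 CPM from the mean of all animals was regressed on log2 exon length over the tested genes outside the 85, and the slope is called its length trend. A library with a negative trend has relatively more counts on short genes. The r of the length trend with the mean z-score of the 85 genes was -0.903 over 84 animals, and -0.898 with run means taken out. The 85 genes are short, with a median exon length of 1534 bases against 3626 in all tested genes, and 74 of them lie below 3626 bases. The total count had an r of -0.034 with the score, and the number of genes with a count -0.11.

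With sex means, run means and the length trend taken out, co-variation was smaller but remained positive. The median r within complexes was then 0.374 and that between complexes 0.384, and 0.326 for all pairs of the 85 genes, against 0.0006 between the 85 and the other tested genes. Complex IV had the highest median within a complex (0.490), followed by complexes III (0.447), V (0.407), I (0.359) and II (0.213). Cox6b1 kept the highest r with the other genes, at 0.873. The roles lay closer together: the median r was 0.599 for the core and 0.621 for the accessory subunits of complex I. It was 0.694 for the F1 head, 0.725 for the peripheral stalk and 0.452 for the assembly factors. Some genes changed place: Ndufs1 stood at 0.605 and Atp5a1 at 0.463, while Atp5sl was at -0.005, Sdhaf1, an assembly factor of complex II, at -0.106 and the complex I assembly factor Ndufaf6 at 0.007. What the length trend reflects was not tested.

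**Figure D2:**
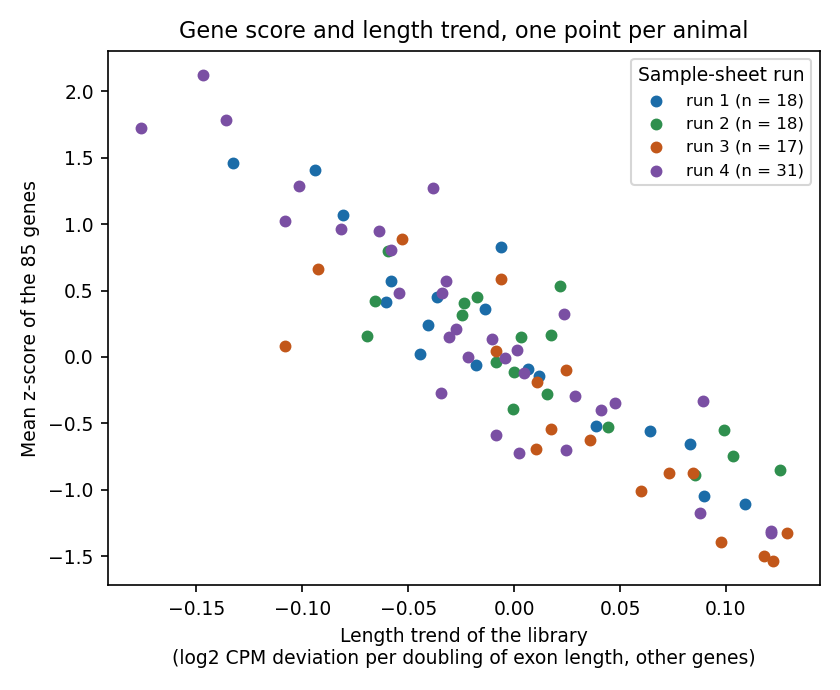
Mean z-score of the 85 genes against the length trend of the library (log2 CPM deviation per doubling of exon length, genes outside the 85), one point per animal, coloured by run of sample-sheet numbers. Scores fall as the trend goes up in all 4 runs, with r = -0.903 over 84 animals, and the 3 highest scores belong to run 4.

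Genes outside the 85 shared the pattern. The 8 tested genes with the highest r with the mean of the 85 were Tceb2 (0.951), Myeov2 (0.948), Slc25a4 (0.937), 2010107E04Rik (0.932), Chmp2a (0.927), Fis1 (0.927), Psmb6 (0.922) and Rpl27 (0.920). Slc25a4 is the ADP/ATP carrier of the inner mitochondrial membrane and Fis1 a mitochondrial fission factor, whereas Tceb2 is elongin B, Psmb6 a proteasome subunit and Rpl27 a ribosomal protein. The 4 with the lowest r were the long genes Dido1 (-0.918), Vps13c (-0.915), Prrc2c (-0.900) and Cdk12 (-0.900), with exon lengths of 11523 to 16092 bases.

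Of the lists set beside the 85 genes, the 76 mitochondrial ribosomal proteins followed them most closely, with an r between the mean z-scores of 0.968, and 0.834 with run means and the length trend taken out. The 14 other subunits and electron carriers of the pathway had 0.911 and 0.739, and the 37 assembly factors outside the naming rule 0.927 and 0.734. The 17 genes of the tricarboxylic acid cycle, which feeds complexes I and II, had 0.750 and 0.770. Cytosolic ribosomal proteins had 0.913 and 0.514, and the proteasome 0.892 and 0.538. The 16 glycolytic genes had 0.374 and 0.298. The 18 regulators of mitochondrial biogenesis, such as the coactivators and nuclear respiratory factors, had -0.607 and 0.238. Cell type marker scores had r of 0.026 and 0.354 for neurons, 0.264 and 0.292 for CeA neurons, and 0.277 and 0.250 for oligodendrocytes. Astrocytes had -0.208 and -0.109, microglia 0.469 and 0.284, and choroid plexus -0.134 and -0.394. Parvalbumin interneurons had -0.026 and 0.548, and striatal medium spiny neurons 0.068 and 0.425. Cortical and basolateral excitatory neurons had -0.221 and -0.158, endothelial and mural cells -0.150 and 0.296, and ependymal cells -0.205 and -0.495.

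Ndufs5 stood apart from all other genes. It encodes an accessory subunit of complex I and lies at chr4:123712710-123718202 (GRCm38, minus strand). Over the 84 animals it ranged between 0.484 and 37.6 CPM with a median of 12.9, a 77.7-fold range, and its r with the mean of the other genes was 0.099. A processed pseudogene, BC002163 at chr16:42955631-42955949 (plus strand), carries the same 318-base coding sequence with 2 differing bases, and the longest identical stretch is 213 bases. Coding bases 61 to 125 of both are shown because they hold the positions at which a read of this sequence can be told apart, in capitals. They are from the GENCODE M21 transcripts on GRCm38, 5′ to 3′.
Ndufs5: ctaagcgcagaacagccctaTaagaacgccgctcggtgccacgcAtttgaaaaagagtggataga
BC002163: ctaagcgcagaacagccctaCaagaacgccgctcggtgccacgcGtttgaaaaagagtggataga

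The counts of the gene and its copy fell into 3 ranges, which were read off the data and were not compared as groups. In 20 animals Ndufs5 lay between 0.484 and 1.89 CPM (median 1.08, or 15 to 60 counts) and BC002163 between 16.0 and 33.7 CPM (median 23.4). In 44 animals both were present, with Ndufs5 between 8.33 and 18.3 CPM (median 12.9) and BC002163 between 6.95 and 23.3 CPM (median 11.2). In the remaining 20 animals Ndufs5 lay between 19.4 and 37.6 CPM (median 25.5) and BC002163 between 0.0645 and 0.596 CPM (median 0.2995, or 2 to 17 counts). No animal had Ndufs5 between 1.89 and 8.33 CPM or BC002163 between 0.596 and 6.95 CPM, and none had low values of both.

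The sum of the pair varied about as much as other genes of the complex. It ranged between 17.01 and 41.6 CPM with a median of 24.6, and the SD of its log2 was 0.257, against 1.73 for Ndufs5 and 2.58 for BC002163 on the same scale. The r with the mean of the other genes was 0.646 for the sum and 0.0986 for Ndufs5 alone. Within the 3 ranges, in the order given, the r of Ndufs5 with the score of the other genes was 0.254, 0.839 and 0.803 over 20, 44 and 20 animals. The ranges occurred in every run and in both sexes: the low range in 7 females and 13 males, the middle one in 25 and 19, the high one in 11 and 9. The high range was found in 9, 4, 1 and 6 animals of runs 1 to 4. What sets the ranges was not tested.

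**Figure D3:**
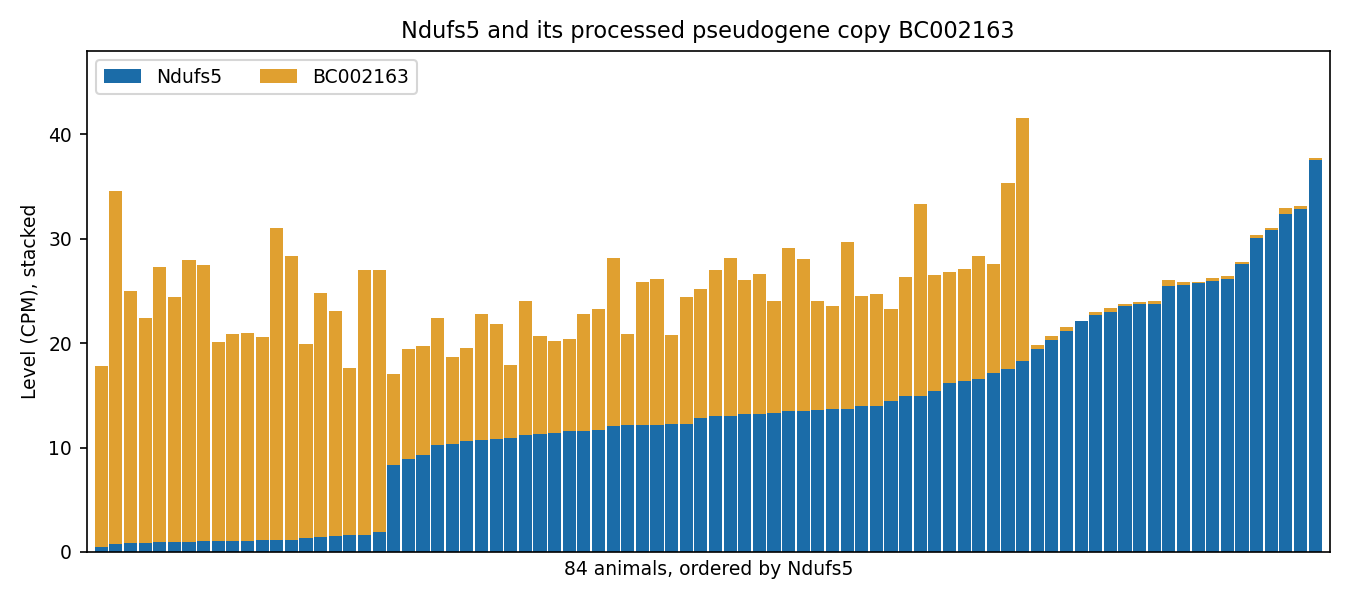
Stacked levels in CPM of Ndufs5 and its processed pseudogene copy BC002163 in each of 84 animals, ordered by Ndufs5; each bar is an animal. In the 20 animals on the left nearly the whole bar is BC002163, in the 20 on the right nearly the whole bar is Ndufs5, and the summed height stays between 17.01 and 41.6 CPM.

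Another 6 of the 85 genes share at least 10% of their 50-base stretches with a pseudogene that had counts. For Ndufa12, an accessory subunit of complex I at chr10:94198955-94221443, the copy is Gm15920 at chr5:130188395-130188796, with 2 differing bases in 399 aligned ones. Gm15920 ranged between 0.0398 and 40.8 CPM (median 17.2) and Ndufa12 between 17.3 and 47.4 CPM (median 27.8), and the r with the other genes was 0.520 for Ndufa12 and 0.660 for the sum. For Cox7a2l the copy is Gm6969, between 0.0333 and 40.1 CPM (median 19.9), and the r was 0.648 for Cox7a2l and 0.735 for the sum. The other 4 sums changed r little, as for Atp5h, a stalk subunit, whose r was 0.926 alone and 0.933 with its copy. Ndufs5 and BC002163 fall into clusters, so no pooled r is given for them. Of the other 6 pairs, the levels of gene and copy were related in Atp5o, also a stalk subunit. In the others the pooled test detected no relation (adjusted permutation p of 0.126 or above for rho). For Ndufa12 and its copy r was -0.143 and rho 0.198, and for Cox7a2l and its copy -0.136 and 0.0474. Both copies range from near 0 to about 40 CPM, and whether they fall into clusters was not examined. The pooled test therefore does not decide whether these 2 pairs are related. For Atp5o and Gm5436, r was 0.287 and rho 0.361, with permutation p of 0.0082 and 0.00075 (adjusted over 7 pairs 0.0287 and 0.00263). That r was 0.274 without the 2 animals farthest from the median, and 0.237 to 0.288 within the 4 runs. With the mean of the other genes, sex means taken out, Gm5436 had a similar r of 0.280, and Atp5o 0.939. Whether gene and copy are related beyond the common pattern was not tested.

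Promoter sequence was looked at because genes that move together invite a look at their starts. RefSeq promoters on GRCm38.p6, from 250 bases before to 50 after each start, were found for 73 of the 85 genes (79 promoters). Among those not matched were Atp5a1, Cox4i1, Cox6c, Ndufa2, Ndufaf6, Ndufb9, Ndufs1, Sdhc, Uqcrb, Uqcrc2 and Uqcrq. Words were searched on both strands. The word of nuclear respiratory factor NRF1, GCGC and GCGC with 2 free bases between them, occurred in 22 of the 79 promoters (27.8%), against 6.27% of all 32544 promoters. CCGGAAG, the ETS word bound by GABPA, occurred in 18 (22.8%), against 8.91%. AAGATGGC, the word of YY1, occurred in 12 (15.2%), against 2.77%, and the ERR word TCAAGGTCA in 2 (2.53%), against 0.412%. The TATA word TATAAA occurred in 5 (6.33%), against 13.6%. The promoters of the 85 genes were also richer in G and C, with a median of 59.0% against 53.0%. A match describes letters, not binding.

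Windows around a match are shown for genes near the common pattern, each on the strand of its gene with the word in capitals. The NRF1 word stands 180 bases before the start in Ndufa5 (chr6:24527682-24527741, minus strand) and 50 bases before it in Ndufa11 (chr17:56717677-56717736, plus strand). The ETS word stands 21 bases before the start in Cox6b1 (chr7:30626115-30626167, minus strand) and 13 bases before it in Ndufb7 (chr8:83566713-83566757, plus strand). In Cox6b1 and Atp5h the ETS word reads CTTCCGG, its reverse complement. Atp5h has both words, with the NRF1 word at chr11:115420026-115420085 and the ETS word at chr11:115419926-115419982 (minus strand).
Ndufa5: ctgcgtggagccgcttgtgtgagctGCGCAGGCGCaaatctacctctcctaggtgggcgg
Ndufa11: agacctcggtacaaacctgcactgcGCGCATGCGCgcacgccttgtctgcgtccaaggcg
Cox6b1: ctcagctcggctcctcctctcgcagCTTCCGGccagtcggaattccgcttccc
Ndufb7: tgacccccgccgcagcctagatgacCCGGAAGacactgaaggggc
Atp5h, NRF1 word: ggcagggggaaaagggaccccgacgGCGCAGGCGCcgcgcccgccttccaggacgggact
Atp5h, ETS word: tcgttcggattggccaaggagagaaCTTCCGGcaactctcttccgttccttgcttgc

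The study's question was which expression features go with voluntary ethanol drinking. None of the 85 genes was called for preference in any of 10 comparisons (mean, week 1 and week 13 preference over all animals and within each sex, and the difference of the slope between the sexes). Tests were edgeR's quasi-likelihood F-test over all 16320 genes with Benjamini-Hochberg adjustment, and slopes are log2 changes per 0.5 of preference. For mean preference over all animals 0 of 85 genes were called, against 0% of all genes. None had an unadjusted p below 0.05 by edgeR, limma-voom or DESeq2. The median slope was -0.02, and 58 of 85 slopes were negative. The smallest p belonged to Sdha, whose slope was -0.07 ± 0.04 (SE; adjusted p = 1), followed by the complex II assembly factor Sdhaf1 at -0.18 ± 0.10.

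Within females the slope of Sdha on mean preference was -0.11 ± 0.05 (SE), with an edgeR adjusted p of 0.668, and it was the only gene with an unadjusted p below 0.05 there by edgeR. limma-voom also gave 1 such gene. Next came Atp5g1 at 0.19 ± 0.13 and Atp5a1 at -0.09 ± 0.06. Within males no gene had an unadjusted p below 0.05 by either tool, and the leading slopes were those of Ndufa12 (0.24 ± 0.17), Ndufb10 (-0.16 ± 0.13) and Ndufa8 (-0.15 ± 0.12), all accessory complex I subunits. The background was 0% in both sexes. The test of the difference between female and male slopes called none (0% of all genes; 0 unadjusted by both tools), with the smallest p for the F1 subunit Atp5d at -0.21 ± 0.14 (adjusted p = 0.999).

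In week 1 no gene was called over all animals, against 0.0306% of all genes, and none had an unadjusted p below 0.05 by edgeR, limma-voom or DESeq2. The median slope of the 85 genes was 0.03 and 63 slopes were positive, but it was -0.01 with 49 negative once male 39, which decides the calls of the comparison, was left out. The leading slopes were those of Atp5k, an ATP synthase membrane subunit (0.17 ± 0.10), Ndufa12 (0.18 ± 0.10) and Atp5sl (-0.09 ± 0.06). In females 0 were called (0% of all genes), 4 had an unadjusted p below 0.05 by edgeR (2.26% of all genes) and 2 by limma-voom, and 73 slopes were positive, with a median of 0.09, led by Cox8a at 0.33 ± 0.14 (adjusted p = 1). In males 0 were called (0.0368% of all genes), with none unadjusted by either tool, and 53 slopes were negative, with a median of -0.02. The difference between the sexes in week 1 slopes was not tested.

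Week 13 preference, measured in the days before euthanasia, gave slopes of one sign. Of the 85 slopes 84 were negative, with a median of -0.07, against -0.001 over all tested genes. None was called (0% of all genes), and 2 had an unadjusted p below 0.05 by each of edgeR (6% of all genes), limma-voom (4.14%) and DESeq2 (6.12%). The smallest p by edgeR belonged to Sdha, at -0.08 ± 0.03 (adjusted p = 0.664). In females the median was -0.08 with 79 negative slopes and 0 calls (0.0368% of all genes; 4 unadjusted by edgeR, against 8.67% of all genes, and 2 by limma-voom), among them the assembly factor Ndufaf2 at -0.25 ± 0.11. In males it was -0.07 with 78 negative and 0 calls (0% of all genes; 0 unadjusted by edgeR and 1 by limma-voom), led by Atp5s at -0.20 ± 0.10. Since the genes co-vary, slopes of one sign are not independent observations.

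The slopes on week 13 preference were larger with run in the model. With run as a covariate the median was -0.13, 84 of 85 were negative, and 38 had an unadjusted p below 0.05, as did 11% of all genes tested, while 0 were called. With intake in g/kg in place of preference, per 10 g/kg, 12 had an unadjusted p below 0.05, a share near the 12.7% of all genes tested, and the smallest adjusted p was 0.109. With the length trend as a covariate the median was -0.04 and 72 were negative. The r of the score of the 85 genes with week 13 preference was -0.14 over 84 animals with sex means taken out, -0.122 without the 2 animals farthest from the median preference, and -0.0136, 0.14, -0.651 and -0.281 within runs 1 to 4. With mean preference it was -0.0392 over 84 animals, and 0.0134, 0.0537, -0.498 and -0.0508 within runs 1 to 4. With week 1 preference it was 0.0391, and -0.0346, 0.125, -0.456 and 0.133 within the runs. Run 3 thus had the strongest relation with each of these measures, over 17 animals, and was not particular to week 13 in this. It also had the lowest median of mean preference, 0.135 against 0.197, 0.252 and 0.242 in runs 1, 2 and 4.

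**Figure D4:**
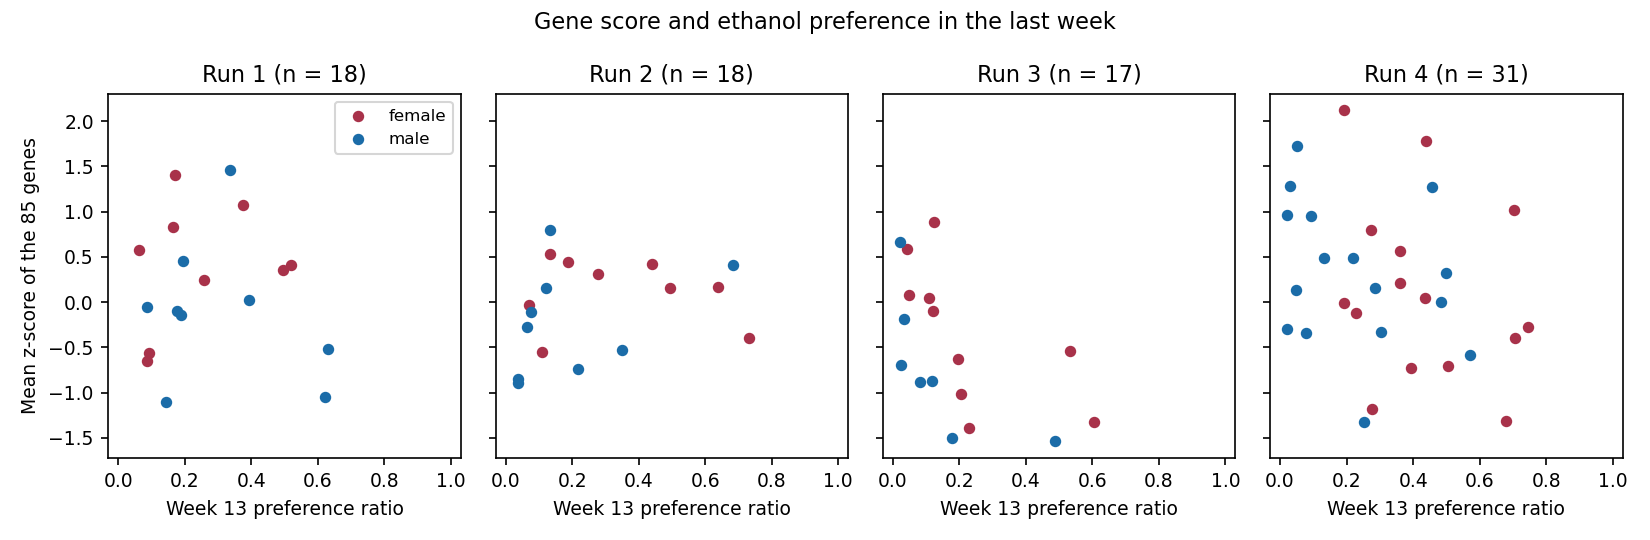
Mean z-score of the 85 genes against the week 13 preference ratio in each run of sample-sheet numbers, one point per animal, females and males in different colours. In run 3 (n = 17) scores are lower at higher preference (r = -0.651); in run 1 (n = 18, r = -0.0136) and run 2 (n = 18, r = 0.14) there is little slope.

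Between the sexes no gene of the 85 was called, against 0.0919% of all genes. In females 70 of the 85 fitted levels were higher, with a median log2 difference (female minus male) of 0.05. Uqcrc2, a core protein of complex III, had the only unadjusted p below 0.05 by edgeR, and DESeq2 also gave 1 such gene and limma-voom 0. Uqcrc2 had between 229 and 330 CPM (median 277) in females, against 224.4 to 374 CPM (median 288) in males. Its log2 difference was -0.07 ± 0.04 (SE; edgeR adjusted p = 0.986), and the ranges overlap almost entirely. Next came the F1 subunits Atp5d at 0.09 ± 0.04 and Atp5e at 0.12 ± 0.07.

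The runs of sample-sheet numbers separated the genes more than drinking or sex did in number of calls. Over the 4 runs 36 of the 85 genes differed by edgeR's quasi-likelihood F-test with Benjamini-Hochberg adjustment, against 21.7% of all genes tested: 17 of 43 in complex I, 3 of 6 in complex II, 5 of 8 in complex III, 7 of 12 in complex IV and 4 of 16 in complex V. In run 1 against the other runs 9 genes were called, all higher (16.9% of all genes were called, 7.94% as higher), at 1.11 to 1.25 times the other runs. In run 2 none was called, against 0.0245% of all genes, and none had an unadjusted p below 0.05 by edgeR or limma-voom. In run 3 the tests called 12, all lower (1.73% of all genes, 0.858% as lower), at 0.764 to 0.899 times the others. In run 4 the tests called 24, all higher (12.3% of all genes, 7.61% as higher), at 1.09 to 1.27 times the others. The median log2 differences of the 85 genes were 0.06, -0.01, -0.18 and 0.12 in runs 1 to 4, and 83 of 85 were negative in run 3.

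The share of counts on the 85 genes had medians of 1.30%, 1.29%, 1.17% and 1.29% in runs 1 to 4. Cox8a had the smallest adjusted p of the 85 genes over the 4 runs, 0.000177 by edgeR. It had 309 to 576 CPM (median 413) in run 1, 251 to 427 (median 378) in run 2, 245 to 367 (median 275) in run 3 and 246 to 576 (median 355) in run 4. The log2 difference was 0.32 ± 0.06 in run 1 (SE; edgeR adjusted p = 0.000437) and -0.39 ± 0.07 in run 3 (adjusted p = 0.00205). Run 3 lay low, but its range overlaps all the others.

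Ndufc2 had medians of 99.1, 87.8, 66.9 and 112 CPM in runs 1 to 4, over ranges of 60.9 to 130, 56.5 to 107, 52.4 to 120 and 57.6 to 160 CPM. Its log2 difference was -0.38 ± 0.10 in run 3 (edgeR adjusted p = 0.027) and 0.34 ± 0.08 in run 4 (adjusted p = 0.00298). Uqcr11, a small complex III subunit, differed by 0.25 ± 0.08 in run 1 (adjusted p = 0.0249) and -0.35 ± 0.09 in run 3 (adjusted p = 0.0211). The c subunit gene Atp5g1 differed by -0.33 ± 0.08 in run 3 and 0.25 ± 0.07 in run 4. Others called in run 4 were Ndufs4, an accessory subunit needed for a stable complex I (0.26 ± 0.07, adjusted p = 0.00671), and Sdhd (0.17 ± 0.04, adjusted p = 0.00738). The assembly factors Sdhaf2 and Ndufaf1, of complexes II and I, were lower in run 3 (-0.15 ± 0.04 and -0.20 ± 0.05) and higher in run 4 (0.12 ± 0.03 and 0.14 ± 0.04). Of the electron carriers and subunits outside the naming rule, 4 of 14 were called over the runs, a share near the 21.7% of all genes: Usmg5, 2010107E04Rik, Cyc1 and Atpif1.

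**Figure D5:**
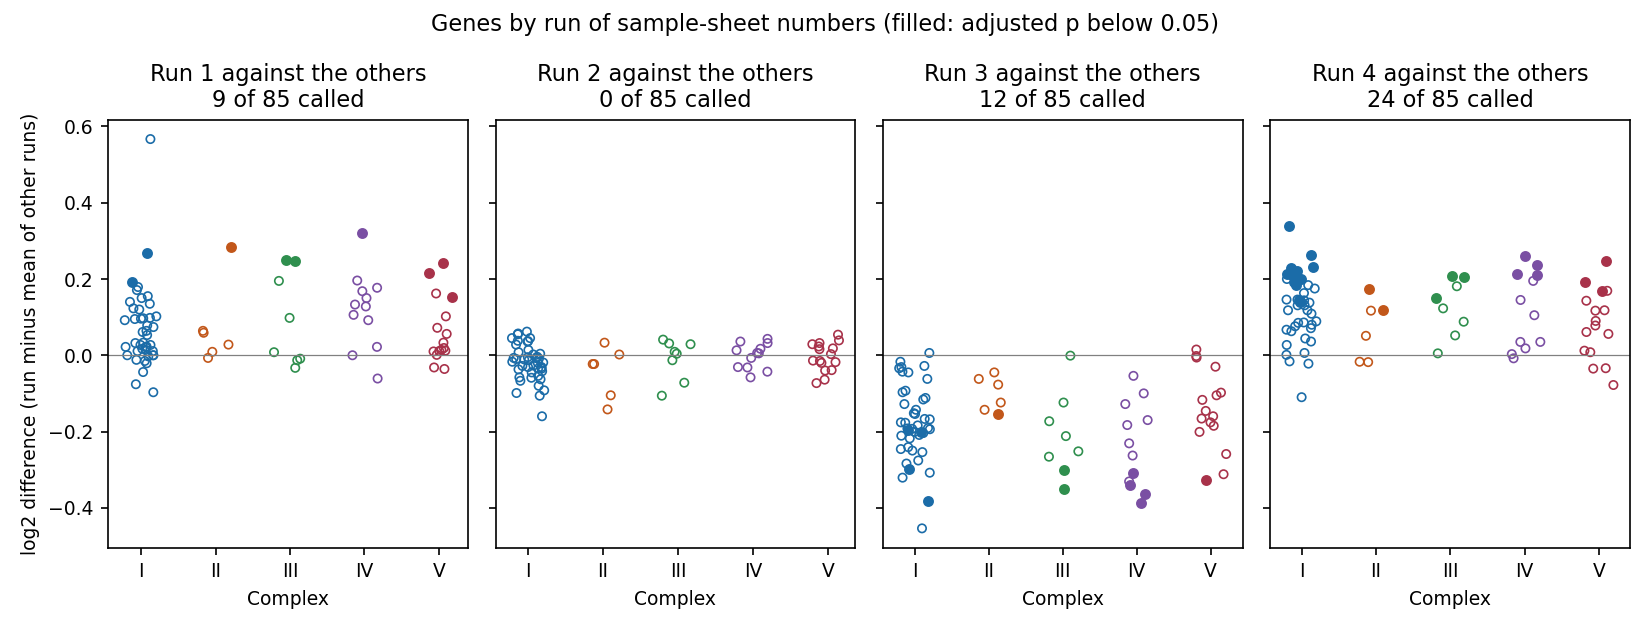
Log2 difference of each of the 85 genes between a run of sample-sheet numbers and the mean of the other runs, by complex; filled points passed an adjusted p of 0.05. Filled points are all above 0 in run 1 (9 genes) and run 4 (24 genes) and all below 0 in run 3 (12 genes), and run 2 has none.

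Cell type markers and other lists moved with the runs too. Run 1 had 9 of 10 oligodendrocyte markers and 6 of 12 CeA neuron markers called lower, and 3 of 8 markers of cortical and basolateral excitatory neurons called higher, against 8.95% of all genes called lower there and 7.94% higher. Summed oligodendrocyte markers had medians of 2020, 3878, 3370 and 4329 CPM in runs 1 to 4, over ranges of 1243 to 8463, 2364 to 15544, 1385 to 21128 and 840 to 12616 CPM. Summed CeA neuron markers had medians of 1443, 1955, 2095 and 2340 CPM, over ranges of 1130 to 3467, 1214 to 3945, 1241 to 3863 and 1199 to 4316 CPM, and none of these markers was at 0 in any library. In run 4 the called genes included 5 of 12 CeA markers, 48 of 83 cytosolic ribosomal, 17 of 76 mitochondrial ribosomal and 14 of 31 proteasome genes, all higher, against 7.61% of all genes. In run 3 they included 4 of 83 cytosolic ribosomal, 4 of 76 mitochondrial ribosomal and 5 of 31 proteasome genes, all lower, against 0.858% of all genes. Choroid plexus markers had medians of 182, 285, 283 and 928 CPM, with 4 of 12 at 0 in some library. Apart from the choroid plexus libraries, for which values follow, their part in the run differences was not tested. The median length trend was -0.0161, 0.0015, 0.0246 and -0.0218 in runs 1 to 4.

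With the length trend of each library as a covariate, 12, 5 and 7 genes were called in runs 1, 3 and 4, and the median log2 difference of the 85 genes was 0.02, -0.07 and 0.03. Without the 5 libraries highest in choroid plexus markers the calls were 7, 19 and 39. limma-voom called 7, 13 and 12, and scaling by the total count in place of TMM left 3, 2 and 29. With the length trend, Atp5g1, Sdhaf2, Ndufaf1 and Ndufs4 no longer passed in run 3, nor did Sdhaf2 and Ndufaf1 in run 4. With total count scaling, Cox8a and Uqcr11 were the genes that still passed in run 3, and Uqcr11 no longer passed in run 1. The sign of the median stayed the same in each of these 3 runs under all 4 alternatives. Shares of all genes called under these alternatives are not given here, so the counts show no gain or loss relative to all genes. With the length trend, 20, 34 and 23 of the 85 genes had an unadjusted edgeR p below 0.05 in runs 1, 3 and 4. The shares of all genes were 36.6%, 16.8% and 22.3%. Without it, 16, 56 and 50 had such a p, against 31.3%, 18.4% and 28.7% of all genes.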

How the data were processed

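The submitters deposited raw counts of reads per gene for 84 libraries in one table, which the authors did not normalize, per the labels. The submitters' processing notes name featureCounts 1.6.0 of Subread, besides FastQC, DESeq2 and STAR, and the build GRCm38 (mm10). No source used here gives the annotation release or the strand setting of the counting. The 8 columns that belong to no sample (3 of undetermined reads, 5 empty) were not used, and 27 symbols that had turned into dates were restored from their gene identifiers.

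The 85 genes, the comparisons and all gene lists were chosen with earlier results of these data known. Animals were grouped by sex and by run of sample-sheet numbers. Genes with a count of at least 10 in enough libraries and a total of at least 15 (filterByExpr by sex) were tested: 16320, all 85 among them. Tests were edgeR 4.0.16 quasi-likelihood F-tests (robust, TMM scaling, R 4.3.3) on all tested genes, with Benjamini-Hochberg adjustment and a threshold of 0.05, sex as a covariate, and slopes per 0.5 preference. limma 3.58.1 (voom), DESeq2 1.42.0, RLE and total count scaling, no filter, run, rank and intake were alternatives. Levels are TMM-scaled CPM, log2 CPM used a prior count of 2, and p-values for correlations came from 100000 permutations. Named genes were those called (at most 10 per comparison), or the 3 with the smallest p, and the extremes of r, SD and level. Not every gene that this rule names is reported here. On simulated counts over 16247 genes, 45% of genes changed by 0.3 and 85% of those changed by 0.6 (log2 per 0.5 preference) were recovered for mean preference, and 70% and 93% for week 13 preference. Over the 4 runs 49% and 87% were recovered, over 16239 genes, with a single run shifted. Changed genes were drawn from those with higher mean counts, and genes and animals were simulated as independent. The rates therefore do not describe genes that co-vary as the 85 do. Shared 50-base stretches were counted among GENCODE M21 transcripts; 16 of the 85 genes share at least 10%, and 14 overlap an exon of an opposite-strand gene with a median of at least 1 CPM.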

Additional observations from a re-analysis of the deposited data

How the results depend on the processing

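Of the alternative values of counts and co-variation, 104 stayed close to the main ones and 13 moved. Counts of 0 calls that remained 0 are among the 104. Of those for named genes, 312 stayed, 28 lost the threshold and 0 changed sign. Here a gene stayed if it was called, or not called, as in the main fit. Genes named without a call, as in all preference comparisons, are therefore among the 312 by remaining uncalled. These totals do not measure how stable the calls are. In run 4 against the other runs 24 genes were called, and 12 with limma-voom, 7 with the length trend as a covariate and 39 without the 5 libraries highest in choroid plexus markers. In run 3 there were 12 calls, and 5 with the length trend, 19 without those libraries and 2 with total count scaling. In run 1 there were 9, and 3 with total count scaling. The share of all genes called under each of these alternatives is not given here. The median r within complexes was 0.758, and 0.374 with the length trend taken out and 0.575 within run 2; between complexes it was 0.728, 0.384 and 0.538, and over all 85 genes 0.686, 0.326 and 0.487. The causes were not tested. The length trend, choroid plexus and total count alternatives were chosen after seeing the data. Leaving out male 39 kept 0 genes called for week 1 preference. No paired analysis was possible because each animal gave a single library. Family and lane could not enter any model.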

Other observations

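Among the isoforms below the abundance threshold, Cox8b, the heart and muscle isoform of the subunit encoded by Cox8a, followed the choroid plexus markers. Its log2 CPM had Pearson's r of 0.951 and Spearman's rho of 0.847 with the mean z-score of 12 choroid plexus markers over 84 animals (permutation p = 1e-05 for each, the smallest that 100000 permutations can give; 3e-05 adjusted over 6 pairs). Leaving out the 2 animals most extreme in the markers gave r of 0.945, and the 4 runs taken singly gave 0.924 to 0.978. Cox6b2 had r of 0.809 and rho of 0.732 with the same markers (permutation p = 1e-05 each, 3e-05 adjusted), 0.78 without the 2 farthest animals and 0.616 to 0.870 within runs. Cox8b reached 11.8 CPM at most.

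Ndufa4l2 and Cox4i2 were related to 12 endothelial and mural markers, weakly. Ndufa4l2 had r of 0.350 and rho of 0.402 (permutation p = 0.00094 and 9e-05; adjusted 0.00188 and 0.00018), 0.309 without the 2 farthest animals and 0.0971 to 0.508 within runs. Cox4i2 had r of 0.319 and rho of 0.2997 (permutation p = 0.00301 and 0.00576; adjusted 0.00452 and 0.00864), 0.256 without the 2 farthest and 0.253 to 0.509 within runs. Cox7a1 with the same markers (r 0.092, rho 0.0912, permutation p = 0.406 and 0.407) and Cox6a2 with parvalbumin interneuron markers (r -0.0585, rho -0.0465, permutation p = 0.597 and 0.675) showed no detectable relation.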
